A study of Mus musculus with 6 samples.

Results

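The endoplasmic reticulum (ER) folding and stress genes are 34 named genes of the compartment in which secreted and membrane proteins are folded: its stress sensors, chaperones, disulfide isomerases, lectins, degradation machinery and translocation channel. They were taken by gene symbol from a table of 15469 protein-coding genes, where 33 of the 34 symbols were found. Vimp, the remaining symbol, is listed in the table as an older name of Selenos, and that gene is described on its own and left out of all counts of members. The members were given by name, and the list was drawn up with earlier results of these data known. All 33 passed the filter on low counts, and the lowest value of any member in any library was 313 counts.

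RNA was measured in 6 libraries of peritoneal macrophages, phagocytes that reside in the abdomen, taken from mice of a model that the labels abbreviate as CAIA and do not spell out. In both groups the cells had been sorted for surface RELM-α, a secreted resistin-like protein known from alternatively activated macrophages, and then plated in macrophage medium. The labels describe the cells of the 3 KO libraries as having PU.1 deleted, the ETS-family transcription factor encoded by Spi1, and those of the 3 WT libraries as controls. The sources used here do not give the strain, age and sex of the mice, the way PU.1 was deleted or the time in culture, nor whether each library had its own animal. The p-values measure the spread between these libraries, which may be technical.

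Proteins enter the ER through the Sec61 channel, are folded by chaperones such as BiP and by disulfide isomerases, and are retained by the lectins calnexin and calreticulin until folded. Proteins that fail are sent back to the cytosol for degradation. When unfolded proteins accumulate, the sensors IRE1, ATF6 and PERK start the unfolded protein response, in which the transcription factors XBP1 and ATF6 raise chaperone and degradation genes and PERK slows translation. Macrophages rely on this machinery for secreted enzymes, cytokines and surface receptors, and GRP94 is known to fold Toll-like receptors and integrins.

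Several of these genes carry a known DNA element close to their start. The ER stress response element, ERSE, which ATF6 is known to bind together with NF-Y, consists of CCAAT and CCACG with 9 bases of any kind between them. RefSeq promoters (GRCm38.p6, from 250 bases before to 50 after the annotated start) were present for 28 of the 33 members. On either strand an exact ERSE occurred in the promoters of 8 of these 28 genes (28.6%), against 37 of all 27025 genes with a promoter (0.137%) or 39 of 32851 promoters (0.119%). With 1 mismatch allowed in the fixed letters it occurred in 13 of the 28 (46.4%), against 1.72% of all genes. The shorter ERSE-II, which is ATTGG and CCACG with 1 base of any kind between them, occurred exactly in 2 members, Herpud1 and Dnajb11 (7.14% against 0.0444% of all genes). The core TGACGTG of the XBP1-type element occurred in Hspa5 alone (3.57% against 2.22%), and the C/EBP-ATF element ATTGCATCA in 0 of the 28 (0.222% of all genes). The ERSE and ERSE-II share their letters CCACG but were counted separately. A match is a description of letters, not a measured site.

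The stretches before the start that hold an exact ERSE are shown for 5 members in which the transcript starts of RefSeq and GENCODE M21 lie after the stretch. For Dnajc3 and Syvn1 the gene ranges in the deposited table begin further upstream, at 118936798 and 6045060, so that by the table these stretches lie inside the gene. Capitals mark the ERSE, each stretch reads 5′ to 3′ on the strand of the gene, and coordinates are GRCm38.p6. Hsp90b1 carries 2 exact elements, the second on the opposite strand. Syvn1, Pdia6 and Dnajc3 were named by the rule for promoters, and Hsp90b1 and Canx were added after their values were seen, since KO replicates 2 and 3 lay far below WT in both.
Hsp90b1, chr10:86705510-86705694, minus strand: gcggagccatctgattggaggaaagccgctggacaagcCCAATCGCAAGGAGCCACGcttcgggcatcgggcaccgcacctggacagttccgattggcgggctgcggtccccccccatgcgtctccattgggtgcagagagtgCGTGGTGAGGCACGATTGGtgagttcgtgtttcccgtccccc
Canx, chr11:50325760-50325859, minus strand: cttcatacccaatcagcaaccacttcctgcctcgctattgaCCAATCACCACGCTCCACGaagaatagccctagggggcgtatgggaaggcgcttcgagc
Dnajc3, chr14:118937786-118937885, plus strand: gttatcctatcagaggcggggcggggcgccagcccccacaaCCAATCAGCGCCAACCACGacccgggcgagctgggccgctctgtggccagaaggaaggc
Syvn1, chr19:6046476-6046575, plus strand: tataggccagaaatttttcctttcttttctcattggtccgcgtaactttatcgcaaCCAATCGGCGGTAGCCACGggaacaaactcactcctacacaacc
Pdia6, chr12:17266445-17266544, plus strand: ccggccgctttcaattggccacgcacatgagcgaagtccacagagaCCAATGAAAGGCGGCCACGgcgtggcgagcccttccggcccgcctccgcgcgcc

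For Hspa5, Calr and Creld2, which also hold an exact ERSE, and for Pdia3 and Herpud1, whose element has 1 mismatch, only the 19 bases of the element are given, to show the bases between its ends, since the ends themselves were fixed by the search. Those of Calr and Creld2 lie on the strand opposite to the gene and are written on the strand of the gene. As for Dnajc3 and Syvn1, the deposited gene range of Herpud1 begins further upstream, at 94379184, so its ERSE and ERSE-II lie inside that range.
Hspa5, chr2:34772025-34772043: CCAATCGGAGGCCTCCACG
Calr, chr8:84847075-84847093: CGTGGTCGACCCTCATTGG
Creld2, chr15:88819520-88819538: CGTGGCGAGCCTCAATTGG
Pdia3, chr2:121413873-121413891: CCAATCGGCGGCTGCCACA
Herpud1, chr8:94386411-94386429: CCAATGGATGGCAGCCACA

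The libraries held 17280855 to 18632623 counts each. KO replicate 1 stood apart: across genes its log2 CPM (CPM is the count scaled to a common library size, with TMM factors) correlated with KO replicates 2 and 3 at 0.902 and 0.922, below its 0.955 to 0.959 with the WT libraries, while KO replicates 2 and 3 correlated at 0.99. Spi1 was at 294 ± 22.6 CPM in KO and 316 ± 29 CPM in WT (SD, n = 3 each, edgeR adjusted p = 0.561), so the count of Spi1 did not set the labels apart. A count over the whole gene does not check a deletion of part of it, and every direction below is one between libraries labelled KO and WT. The 4 tested Y-linked genes summed to 1 to 8 counts in a KO library and 2158 to 2854 in a WT library, so the labels also differ in Y-linked transcripts. In these libraries a difference that goes with the label cannot be told apart from one that goes with the presence of Y-linked transcripts. Of 11424 genes tested with the edgeR quasi-likelihood test, 379 (3.32%) were called at an adjusted p under 0.05, 258 (2.26%) higher and 121 (1.06%) lower in KO. With a correction for GC content and length the split was 386 higher and 333 lower, and by limma on log2(TPM + 1) it was 779 and 116.

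In the WT libraries the members spanned a wide range of levels. On the per-length scale of TPM, in which counts are divided by transcript length and scaled to a common sum, calreticulin (Calr) was the most abundant at 992 ± 62.9 TPM (SD, n = 3), followed by Hspa5 at 658 ± 56.5, Hsp90b1 at 439 ± 46.7, Pdia3 at 404 ± 31.3 and P4hb at 333 ± 15.1 TPM. These 5 genes held 53.9% of the summed TPM of the members. Of the sensors, Eif2ak3 was at 14.9 ± 2.6 and Ern1 at 11.9 ± 2.96 TPM, the 2 lowest of the 33, and Atf6 at 31 ± 5.83 TPM ranked 25, and the median member was at 65.4 TPM. In this order, 21 of the 32 neighbouring pairs lay within 1 SD of each other and cannot be ranked. Summed over the 33 members, the WT libraries held 4996, 5151 and 5569 TPM, and KO replicates 1, 2 and 3 held 5471, 4585 and 4510 TPM. KO replicate 1 lay within the WT range and KO replicates 2 and 3 below it.

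**Figure D1:**
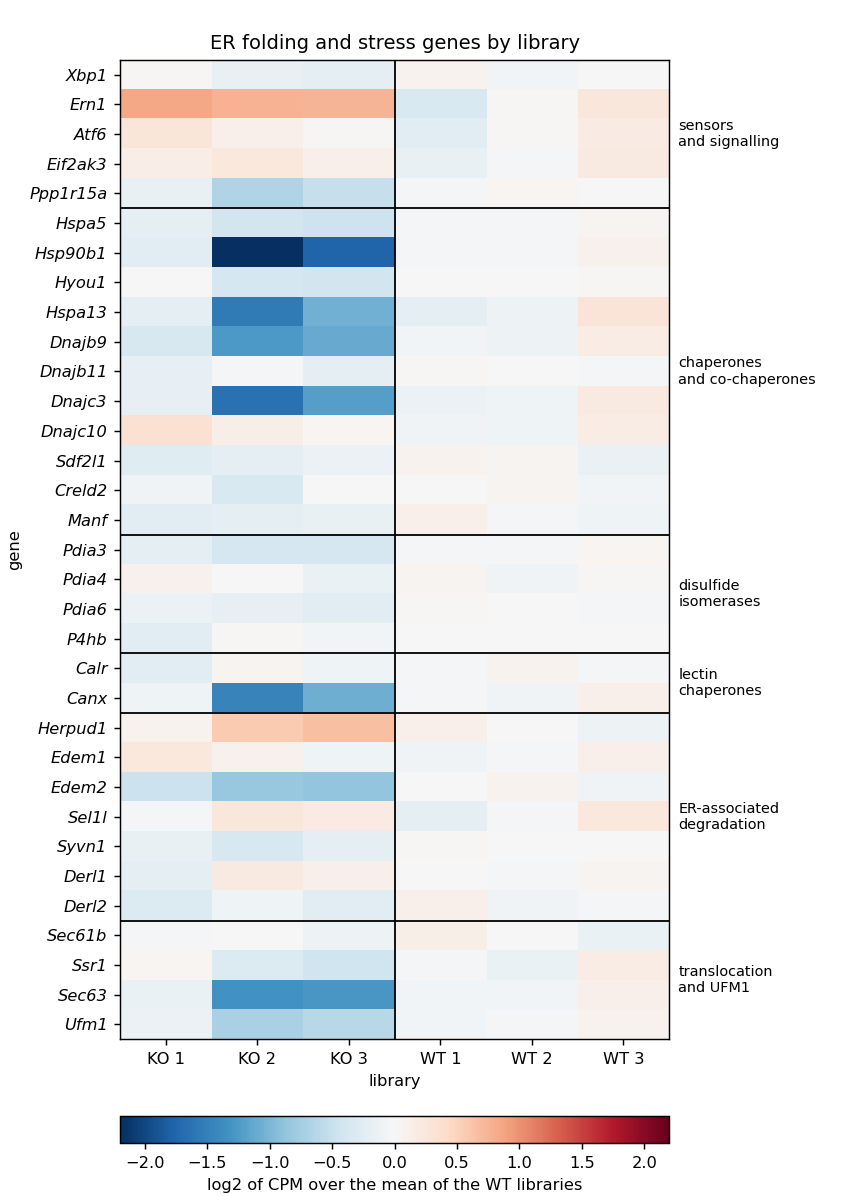
Log2 of the CPM of each of the 33 members in each library (columns) over the mean of the 3 WT libraries, with genes (rows) grouped by role. Ern1 is higher in all 3 KO libraries, Edem2 is lower in all 3, and Hsp90b1, Hspa13, Dnajb9, Dnajc3, Canx and Sec63 are low in KO replicates 2 and 3 while KO replicate 1 lies closer to WT.

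Between the labelled groups, 1 of the 33 members was called, Edem2, which was lower in KO. That is 3.03% of the members against a background of 3.32% of all genes tested (1.06% for lower genes), so the share of called members was close to the background. At an unadjusted p under 0.05 there were 9 members, against 22.7% of all genes. DESeq2, as the other count test, called 1 member higher and 4 lower (3.03% and 12.1%), against 7.12% and 3.69% of its genes (10.8% in either direction). With the correction for GC content and length edgeR called 1 higher, Ern1, and 1 lower, Hspa5, against 3.43% and 2.96% (6.39% in either direction). In value most members lay lower in KO: 25 of 33 log2 differences were below 0, against 50.7% of all genes tested, and their median was -0.20 against -0.006 over all genes. In CPM, all 3 KO libraries lay below all 3 WT libraries in 14 members (42.4%, against 12.6% of all genes tested), and above them in 1, Ern1 (3.03% against 18.4%). Overlap between groups is given in CPM throughout. In TPM, Edem2 alone of these 14 kept its groups apart, since KO replicate 1 lay above a WT library in the others. Hspa5, for example, was at 670 TPM in KO replicate 1 and 621 TPM in WT replicate 1. Ern1 also kept its groups apart in TPM. For 25 members the 95% interval of the difference lay within 1 log2 unit of 0. In bulk RNA, fewer cells of a type and less RNA per cell cannot be told apart.

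**Figure D2:**
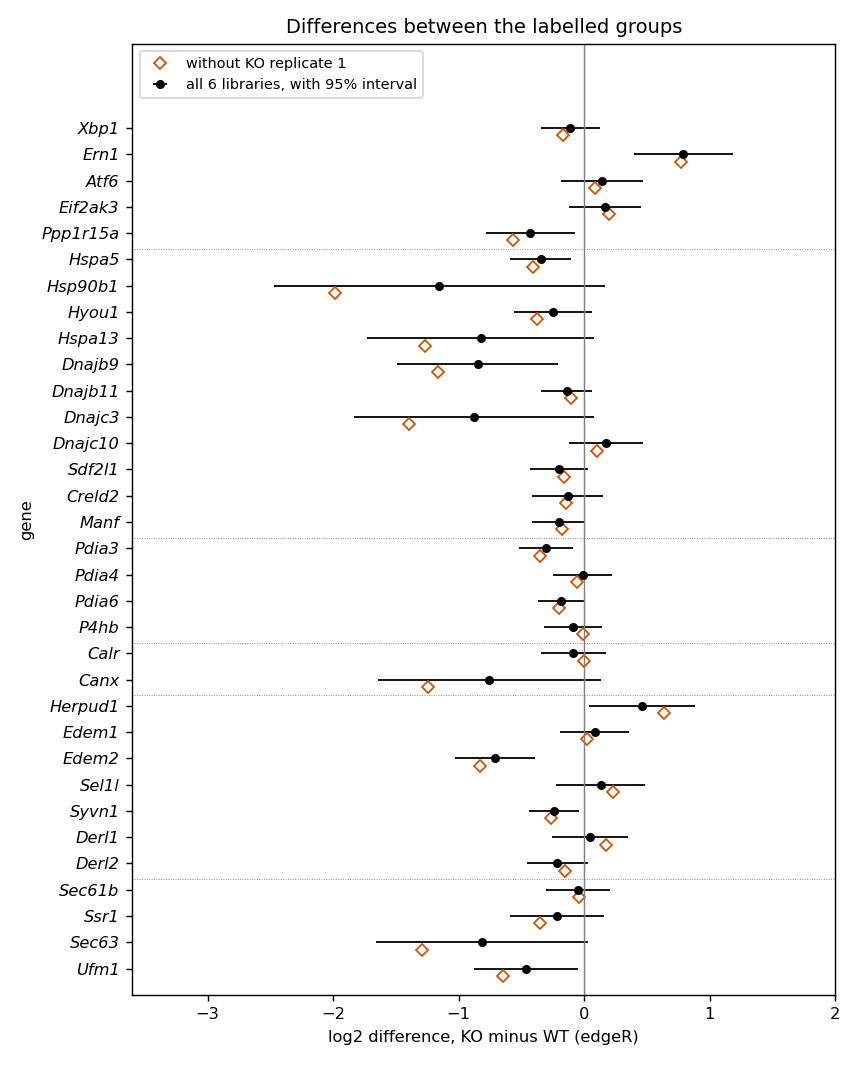
Log2 difference, KO minus WT (x axis), of each member (y axis, grouped by role as above) with its 95% interval from edgeR on all 6 libraries (filled circles), and the difference without KO replicate 1 (open diamonds). The intervals of Hsp90b1, Dnajc3, Canx, Hspa13 and Sec63 are the widest, and their diamonds lie further from 0 than their circles.

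Edem2 (chromosome 2, 155701673 to 155729475, minus strand, GRCm38 as are all gene coordinates here) encodes a lectin-like protein of the ER that starts the mannose trimming by which misfolded glycoproteins are marked for degradation. The KO libraries, in the order of their replicate numbers, had 162, 126 and 123 CPM of Edem2, and the WT libraries 225, 236 and 213 CPM. Every KO library was below every WT library. The mean was 137 ± 21.9 CPM in KO and 224 ± 11.5 CPM in WT (SD, n = 3 each), and the ratio of KO to WT was 0.612. By edgeR this is -0.71 in log2 (SE 0.13) with an adjusted p of 0.0481, and the 95% interval ran from -1.03 to -0.39. The call sits at the threshold. It was lost when KO replicate 2, KO replicate 3 or WT replicate 1, 2 or 3 was left out (adjusted p = 0.161, 0.186, 0.19, 0.247 and 0.141) and held without KO replicate 1 (0.000168). It was also lost with the GC and length correction, where the log2 difference was -0.85 (adjusted p = 0.0525), without a filter on counts (0.0511), among genes averaging 10 CPM or more (0.0557), by limma-trend on log2(TPM + 1) (-0.57, 0.0693) and with the replicate number as a block (0.165). Edem2 was called by DESeq2 (0.000226), by limma-voom (0.0483) and by edgeR with RLE or upper-quartile factors (0.0447 and 0.0432).

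Of the other genes of ER-associated degradation, none was called among the 6 remaining members by edgeR on all 6 libraries, with Herpud1 and Syvn1 at an unadjusted p under 0.05. Herpud1, a membrane protein that recruits ubiquilins to the degradation complex, was at 37.1 CPM in KO replicate 1 and 52.3 and 55.8 in replicates 2 and 3, against 38.1, 34.8 and 32.6 in WT. KO replicate 1 lay inside the WT range, and the difference of all 6 libraries was 0.46 in log2 (95% interval 0.04 to 0.88, edgeR adjusted p = 0.189). Syvn1, the ubiquitin ligase HRD1, was at 89.9, 79.2 and 86.4 against 102, 99.7 and 99.8 CPM, with no overlap (fold 0.847, adjusted p = 0.163). Sel1l, its partner, was at 233, 285 and 270 (KO) and 205, 232 and 281 (WT) CPM, a spread within WT as wide as the difference between groups. Edem1, a relative of Edem2, was at 384 ± 42.9 against 363 ± 26.1 CPM (fold 1.06), with overlapping groups. Its interval, -0.19 to 0.36 in log2, does not reach the point estimate of Edem2, but the difference between these genes was not tested. Derl1 and Derl2, which encode derlins of the export channel, were at folds of 1.03 and 0.863. Derl2 is listed on an unplaced sequence with a range too wide for a gene, so no position is given for it. Selenos, the gene behind the symbol Vimp and a selenoprotein that binds derlins, was at 56.3, 68.3 and 61.4 CPM in KO and 66.2, 62.6 and 61.5 CPM in WT (log2 -0.03, 95% interval -0.28 to 0.21, adjusted p = 0.85).

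Among the sensors, Ern1 (chromosome 11, 106394732 to 106487851, minus strand), which encodes the kinase and endoribonuclease IRE1α that splices Xbp1 mRNA, was the member with the largest rise in value. Its values were 53, 49.9 and 49.3 CPM in the KO libraries by replicate number, against 23.2, 29.7 and 35.1 CPM in WT. The 3 KO libraries lay close together and above all WT libraries. The fold was 1.73 and the log2 difference 0.79 (SE 0.162, 95% interval 0.39 to 1.19), with an edgeR adjusted p of 0.0602, which misses the threshold. Some other fits called it: the adjusted p was 0.0406 with upper-quartile factors, 0.0287 with the GC and length correction, 0.00166 by DESeq2 and 0.0432 by limma-trend on log2(TPM + 1). Others did not: it was 0.0587 with RLE factors, 0.0578 by limma-voom, 0.0632 without a filter on counts, 0.0639 among genes averaging 10 CPM or more and 0.191 with the replicate number as a block. Without KO replicate 1 the adjusted p was 0.00465, and without any of the other 5 libraries it was 0.114 to 0.255. Its log2 difference without KO replicate 1 was 0.77, close to that of all 6 libraries.

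None of the 4 remaining sensor and signalling genes was called by edgeR over all 6 libraries, with Ppp1r15a at an unadjusted p under 0.05, and their difference from Ern1 was not tested. Atf6, the membrane-bound transcription factor released by cleavage in the Golgi, was at 179, 161 and 150.4 against 126, 150.4 and 168 CPM (log2 0.14, 95% interval -0.18 to 0.47). Eif2ak3, which encodes the translation-slowing kinase PERK, was at 45.7, 49 and 44.9 against 37, 40.1 and 47.3 CPM (log2 0.17, -0.12 to 0.45). Both pairs of groups overlapped. Xbp1, the transcript that IRE1 splices, was at 205, 180.2 and 173 against 211, 192 and 199 CPM (log2 -0.11, -0.34 to 0.12, adjusted p = 0.492). Counts per gene do not separate spliced from unspliced Xbp1, so the activity of the pathway was not measured. Ppp1r15a, which encodes GADD34, the phosphatase subunit that restores translation after PERK has acted, was at 33.1, 23.5 and 26 against 35.8, 38.1 and 37.2 CPM. All KO libraries were below WT, with replicates 2 and 3 lowest (fold 0.742, adjusted p = 0.158, and 0.00246 without KO replicate 1).

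**Figure D3:**
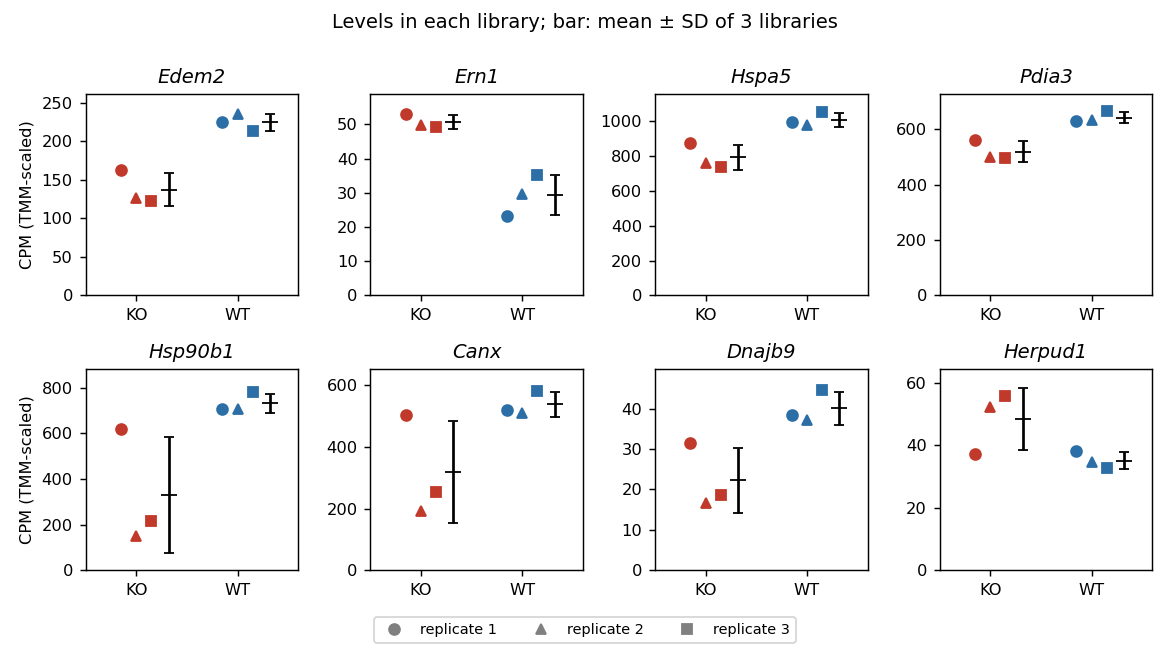
CPM (y axis, from 0) of 8 members in each library, by group (x axis) and replicate (symbol), with the mean and SD of 3 libraries beside each group. Edem2, Hspa5 and Pdia3 are lower and Ern1 higher in all 3 KO libraries, whereas for Hsp90b1 and Canx KO replicate 1 lies near the WT libraries and replicates 2 and 3 far below, at 151 and 216 CPM of Hsp90b1.

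The central chaperone, Hspa5 (BiP, chromosome 2, 34772090 to 34776529, plus strand), binds unfolded chains in the lumen and holds the sensors inactive. It was at 874, 759 and 736 CPM in KO and 990.1, 974 and 1050.2 CPM in WT. The groups did not overlap, but the difference was small, a fold of 0.786 (log2 -0.35, SE 0.101, 95% interval -0.59 to -0.10, edgeR adjusted p = 0.118). DESeq2 called it (0.0216), as did edgeR with the GC and length correction (0.0482) and without KO replicate 1 (0.0033). Hyou1, the nucleotide exchange factor of BiP, was at 228, 174 and 173 against 225, 226 and 231 CPM, with KO replicate 1 inside the WT range (fold 0.843, adjusted p = 0.301).

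Hsp90b1 (chromosome 10, 86690841 to 86705444, minus strand), the ER form of Hsp90 known as GRP94, differed most within the KO group. It was at 619 CPM in KO replicate 1 and 151 and 216 CPM in KO replicates 2 and 3, against 706, 706 and 781 CPM in WT. KO replicate 1 lay just below the WT libraries, and the mean of the other 2 was 0.251 of the WT mean. Over all 6 libraries the log2 difference was -1.15 with a wide interval (-2.47 to 0.16, edgeR adjusted p = 0.263). Without KO replicate 1 it was -1.98 (adjusted p = 7.14e-05), and -1.58 with the GC and length correction in that comparison (3.29e-05).

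Of the co-chaperones of BiP and other Hsp70-type genes, 3 had low values in KO replicates 2 and 3. Dnajc3, a co-chaperone also known as P58IPK, was at 121 CPM in KO replicate 1 and 44 and 59.3 CPM in replicates 2 and 3, against 126, 129 and 158 CPM in WT. Dnajb9, the J-domain protein ERdj4, was at 31.4, 16.6 and 18.6 against 38.3, 37.1 and 44.6 CPM, and DESeq2 called it lower (adjusted p = 0.0319, against 0.134 by edgeR). Hspa13, a microsomal member of the Hsp70 family, was at 41.3, 16.1 and 22.7 against 40.6, 44 and 57.4 CPM. In these genes KO replicates 2 and 3 were at 0.375, 0.44 and 0.41 of the WT mean. Over all 6 libraries edgeR called none of them (adjusted p = 0.247, 0.134 and 0.251). Without KO replicate 1 edgeR called all of them lower (adjusted p = 0.000314, 0.000217 and 0.00156), as it did 26.0% of all genes tested. These genes were named here for low values in the same libraries, so the comparison without KO replicate 1 adds no separate support. With the GC and length correction in that comparison the calls of Dnajb9 and Hspa13 ended, at log2 differences of -0.09 and -0.10 (adjusted p = 0.403 and 0.367), and Dnajc3 stayed called at -0.84.

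Dnajb11, the co-chaperone ERdj3, was at 136, 152 and 132 against 158, 154 and 151 CPM (log2 -0.14, 95% interval -0.35 to 0.07). Sdf2l1, which keeps ERdj3 clients soluble, was at 81, 83.8 and 89 against 102, 102 and 88.2 CPM (log2 -0.20, -0.43 to 0.03). Dnajc10, a J-domain reductase, was at 88 ± 9.23 against 78.1 ± 8.03 CPM and its groups overlapped. Manf, a secreted protein that binds BiP, lay between 97.6 and 101 CPM in KO and between 107 and 124 in WT, without overlap and with a fold of 0.869 (adjusted p = 0.231). Creld2, an ER protein induced by stress, was at 27 ± 3.01 against 29.6 ± 1.28 CPM (adjusted p = 0.493). Of these 5 genes 0 were called by edgeR with all 6 libraries, 0 by DESeq2 and 0 without KO replicate 1 (3.32%, 10.8% and 49.6% of all genes in either direction), and 0 had an unadjusted p under 0.05 in the edgeR test of all 6. With the GC and length correction and without KO replicate 1 all 5 were called, against 53.7% of all genes: Dnajb11, Sdf2l1, Manf and Creld2 lower (adjusted p = 0.000766, 0.00405, 0.00125 and 0.0243) and Dnajc10 higher (0.00407).

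In mean CPM the disulfide isomerases were lower in KO by small amounts. In mean TPM, P4hb (345 in KO, 333 in WT) and Pdia4 (72.05 in KO, 65.43 in WT) were higher in KO, while Pdia3 and Pdia6 were lower. Pdia3 (ERp57), which works on glycoproteins held by calnexin and calreticulin, was at 562, 500.3 and 496 against 629, 634 and 665 CPM. The groups did not overlap (fold 0.809, log2 -0.31, 95% interval -0.52 to -0.09), and it was called by DESeq2 (adjusted p = 0.0177) and not by edgeR (0.117). Pdia6, known as P5, was at 279 ± 12.8 against 316 ± 6.44 CPM (fold 0.882, no overlap, adjusted p = 0.228). P4hb, the isomerase PDI, was at 489, 586 and 553 against 584, 573 and 578 CPM, with KO replicate 1 the lowest library. Pdia4, known as ERp72, was at 96.4 ± 8.42 against 97.2 ± 4.54 CPM, with an interval of -0.25 to 0.22 in log2.

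The lectin chaperones are the next pair. Calr, the soluble lectin, was at 946, 1162 and 1047 against 1079, 1173 and 1102 CPM, a log2 difference of -0.09 (95% interval -0.35 to 0.17, adjusted p = 0.619). Canx, the membrane lectin calnexin, was at 504 CPM in KO replicate 1 and 194 and 255 in replicates 2 and 3, against 519.9, 509 and 582 CPM in WT. Without KO replicate 1 Canx was lower by 1.24 in log2 and called (adjusted p = 0.0002), while Calr was not (0.982). With the GC and length correction in that comparison both were called lower, Canx at -0.47 (0.000525) and Calr at -0.26 (0.00584). Whether the 2 genes differ from each other was not tested.

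In the translocation group, Sec63, a J-domain protein that draws BiP to the channel, was at 101, 44.4 and 46.4 against 108, 107 and 122 CPM (log2 -0.81, adjusted p = 0.233, and -1.29 with 4.98e-05 without KO replicate 1). Ufm1, the ubiquitin-like modifier attached to ER-bound ribosomes, was at 57.7, 38.7 and 41.2 against 60.5, 62.1 and 67.1 CPM (fold 0.725, adjusted p = 0.18). Ssr1, a subunit of the translocon-associated complex, was at 192, 151 and 138 against 183, 168 and 209 CPM. Sec61b, a small subunit of the channel, was at 36.2 ± 1.3 against 37.5 ± 3.6 CPM (log2 -0.05, 95% interval -0.31 to 0.20). Sec63 and Ufm1 showed no overlap between groups, whereas Ssr1 and Sec61b did overlap.

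Left without KO replicate 1, the comparison of 2 KO with 3 WT libraries called 5793 of 11677 genes tested (49.6%), 23.6% higher and 26.0% lower. Of the members, 14 were lower (42.4%) and 2 higher, Ern1 and Herpud1 (6.06%). By role, 6 of 11 chaperones and co-chaperones were lower, 3 of 4 translocation and UFM1 genes, 2 of 7 degradation genes, 1 of 4 isomerases, 1 of 2 lectins and 1 of 5 signalling genes. KO replicate 1 lay within the WT range for 8 of the 33 members, against 33.6% of all genes. Of the members, 16 had KO replicates 2 and 3 below all other libraries (48.5%, against 30.0% of all genes), and 2, Herpud1 and Derl1, had both above (6.06% against 27.1%). In 6 members, Hsp90b1, Dnajc3, Dnajb9, Hspa13, Canx and Sec63, KO replicates 2 and 3 were at least 1.5-fold below each of the other 4 libraries. That is 18.2% of the members, against 14.4% of all genes, which is near the background. The reverse, both at least 1.5-fold above each of the other 4, held for 0 members and 4.63% of all genes.

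Those 6 genes have in common a low GC content of their transcripts. It was 39.8% for Hspa13, 40.6% for Dnajb9, 42.2% for Canx, 43.2% for Dnajc3, 43.5% for Sec63 and 43.8% for Hsp90b1, against a median of 48.9% over the members and 50.1% over all genes. The GC content is that of the longest coding transcript in GENCODE M21, and the limit of 45% used next was set after the values were seen. The 10 members under 45% GC had a median log2 difference of -1.22 between KO replicates 2 and 3 and WT, and the 2700 genes under 45% among all tested had one of -0.84. For the 23 members at or above 45% it was -0.12, against 0.097 for the 8557 such genes of all tested. Low GC content did not set the 6 genes apart from all other members. Ufm1, Derl2, Ssr1 and Dnajc10 were also under 45%, with KO replicates 2 and 3 at 0.632, 0.889, 0.775 and 1.06 of the WT mean. In KO replicate 1 the medians were -0.16 and -0.12 for the members and 0.09 and 0.016 for all genes. Across the 33 members, GC content and the difference of KO replicates 2 and 3 correlated at r = 0.502 (Spearman 0.374), and across all 11257 genes with a GC value at 0.364 (0.398). For KO replicate 1 these values were 0.025 and -0.067. These are correlations across genes measured in the same libraries, which are not independent replicates.

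**Figure D4:**
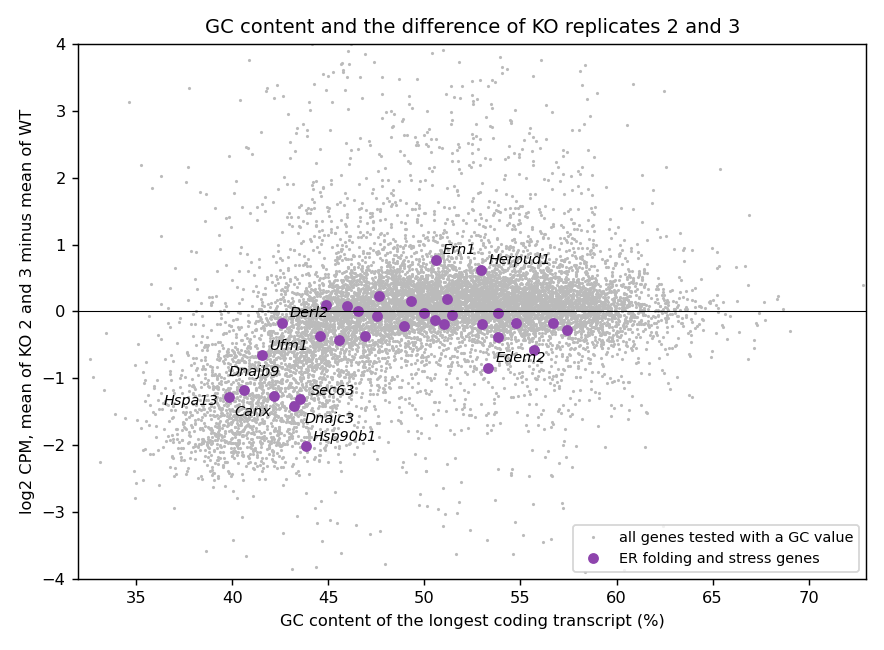
GC content of the longest coding transcript (x axis, percent) and log2 CPM of KO replicates 2 and 3 minus WT (y axis), for the 33 members (large points) and all other tested genes with a GC value (small grey points, those beyond the axis limits not drawn). Most members under 45% GC lie with the mass of low-GC genes below 0, while Edem2, Ern1 and Herpud1 lie at 50.6% to 53.3% GC, away from it.

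Correcting each library for GC content and transcript length changed some members more than others. In the comparison without KO replicate 1, the log2 difference of Hspa13 went from -1.27 to -0.10 (adjusted p = 0.367), that of Dnajb9 from -1.17 to -0.09 (0.403) and that of Ssr1 from -0.35 to 0.05 (0.743). For Ufm1 and Derl2 it went from -0.65 and -0.15 to 0.27 and 0.52 (0.0389 and 0.0159), the opposite direction. Canx went from -1.24 to -0.47 (0.000525), Sec63 from -1.29 to -0.78 (6.63e-05), Dnajc3 from -1.40 to -0.84 (5.54e-05) and Hsp90b1 from -1.98 to -1.58 (3.29e-05), all smaller and still called. Edem2 went from -0.83 to -1.11 (2.37e-06), Ern1 from 0.77 to 0.56 (0.00165) and Herpud1 from 0.64 to 0.38 (0.00381). After the correction 20 members were called lower and 5 higher (60.6% and 15.2%), against 30.8% and 23.0% of all 11494 genes tested (53.7% in either direction), and 10 of the 14 called lower before were still called lower. The 10 genes called lower with the correction alone were Xbp1, Calr, Creld2, Dnajb11, Manf, Sdf2l1, P4hb, Pdia4, Pdia6 and Sec61b, with log2 differences from -0.45 for Manf to -0.22 for Pdia4.

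**Figure D5:**
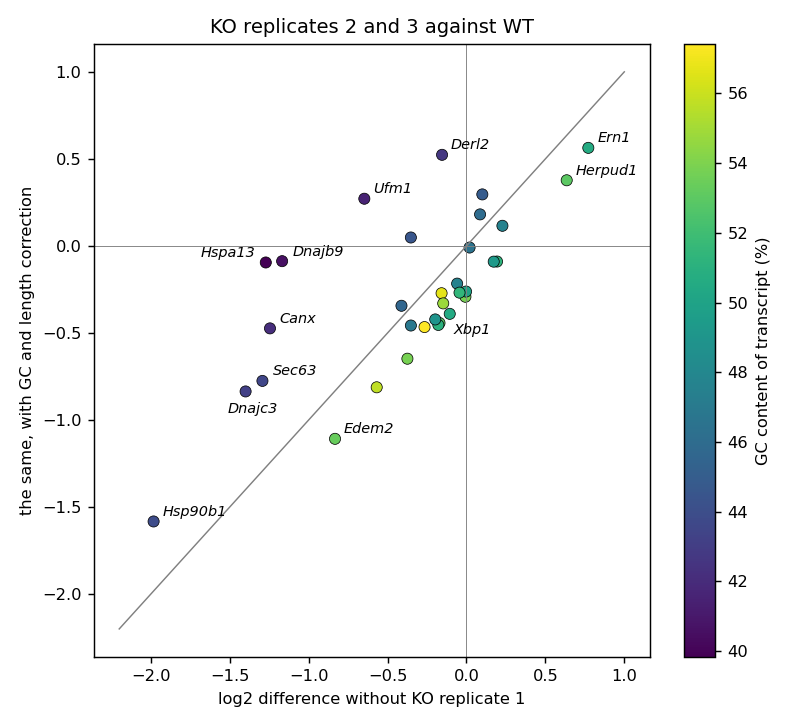
Log2 difference of each member between KO replicates 2 and 3 and WT without (x axis) and with (y axis) the correction for GC content and length, coloured by GC content, with the line of equal values. Hspa13 and Dnajb9 move to near 0, Ufm1 and Derl2 cross it, and Hsp90b1, Edem2 and Ern1 stay away from 0.

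The genes with an exact ERSE lay on the lower side. All 8 had a log2 difference below 0 over the 6 libraries, with a median of -0.29. In 6 of them the KO libraries lay below the WT libraries without overlap in CPM. Among the 20 members whose promoter held no exact ERSE, 14 were below 0, the median was -0.13 and 7 were without overlap. Some of these 20 held a related element: Pdia3, Pdia4, Herpud1, Derl2 and Sel1l an ERSE with 1 mismatch, and Herpud1 and Dnajb11 an ERSE-II. Of those, Herpud1 (0.46) and Sel1l (0.13) were above 0. Pdia3 (-0.31), Derl2 (-0.21), Dnajb11 (-0.14) and Pdia4 (-0.01) were below, so the split depends on the exact match. Without KO replicate 1, 5 of the 8 and 7 of the 20 were called lower, and after correction for GC content and length 8 of 8 and 10 of 20 (medians -0.44 and -0.15). The shares of all genes were 12.6% without overlap below WT, and 26.0% and 30.8% called lower in these fits. Of 29 genes outside the members with an exact ERSE, 6 were tested, with a median of -0.27, 4 below 0 and 0 called over all 6 libraries. Without KO replicate 1 their median was -0.12, with 3 below 0 and 2 called lower, and with the correction added it was -0.19, with 5 below 0 and 1 called lower. The median GC content was 47.2% in the 8 and 49.1% in the 20, and these classes were not compared by a test.

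The rest of the ER machinery was taken from a list of genes chosen by function. Of 111 tested, edgeR called 1 lower and 0 higher (0.901% and 0%, against 1.06% and 2.26% of all genes), and the median log2 difference was -0.03, against -0.20 for the members, a difference that was not tested. The called gene was Spcs2 (chromosome 7, 99837569 to 99870340, minus strand), a subunit of the signal peptidase that trims chains as they enter the ER. It was at 126, 116 and 117 CPM in KO and 165, 160.2 and 159.8 CPM in WT, without overlap (fold 0.741, log2 -0.43, SE 0.0755, adjusted p = 0.045). Like Edem2, it kept its call without KO replicate 1 alone, and leaving out any of the other 5 libraries ended it (0.137 to 0.247). By subgroup, the medians were -0.15 for 20 genes of translocation and signal peptide cleavage, -0.20 for 7 of UFM1 conjugation, -0.03 for 14 of glycosylation, -0.02 for 9 of KDEL retrieval and ER-phagy, -0.003 for 21 of degradation, -0.006 for 30 of folding and oxidation, and 0.088 for 10 of stress signalling. Without KO replicate 1, 18 were higher and 23 lower (16.2% and 20.7%), both below the shares of all genes.

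Plasma cells have an expanded ER, and their defining transcripts were close to 0. Over the 6 libraries Jchain, Mzb1, Tnfrsf17 and Derl3 did not exceed 0.93, 0.13, 0.67 and 0.69 TPM. The summed plasma cell list (7 of 8 genes in the table) lay at 51.3 to 63.6 TPM in KO and 91.5 to 126 TPM in WT, most of it from Sdc1 (43 to 52 against 81 to 110.3 TPM, adjusted p = 0.0147 by edgeR) and Prdm1 (6.36 to 8.15 against 9.83 to 13.9 TPM, 0.0389). Both were called lower in KO. Irf4, the other tested gene of this list, was higher in value and not called (0.64 to 2.99 against 0.38 to 0.42 TPM, log2 1.65, edgeR adjusted p = 0.215). What part these plasma cell genes have in the ER results was not tested. All 7 macrophage markers were present, summing to 34780 to 79296 TPM in KO and 62914 to 66040 TPM in WT, with KO replicate 1 the lowest library for Lyz2, at 28821 TPM. Csf1r, the receptor for the macrophage growth factor CSF1, was called higher in KO (1153 to 1411 against 622 to 684 TPM, log2 0.79, edgeR adjusted p = 0.0208). It was the only macrophage marker called, and the others went both ways. Adgre1 (0.77), Itgam (0.63) and Fcgr1 (0.31) were above 0 in log2, and Cd68 (-0.17) and Lyz2 (-0.17) below. Mertk was also below (-0.68), at 34.3 to 50.5 against 56.4 to 81.3 TPM. Neutrophil markers (6 of 7 in the table) summed to 38.6 to 191 TPM in KO and 95.1 to 101 in WT, with none called. S100a8 was at 22 to 45.3 against 61.6 to 68.5 TPM (edgeR adjusted p = 0.0774). S100a9 was at 0.63 to 12.1 against 8.91 to 12.3 TPM (0.396), and Mmp8 at 12.1 to 133 against 20 to 23.7 TPM (0.476). Platelet and megakaryocyte markers (7 of 7) summed to 75.3 to 260.4 TPM in KO and 133 to 206 TPM in WT. Most of the platelet sum was Pf4 (71.3 to 235 against 75.4 to 96.2 TPM), and 3 platelet markers were called lower in KO. Itga2b was at 0.44 to 2.44 against 9.32 to 18.8 TPM, Gp9 at 0 to 0.31 against 2.41 to 6.03 TPM and Gp1ba at 0.18 to 0.38 against 1.86 to 4.89 TPM (edgeR adjusted p = 0.0482, 0.0452 and 0.0214). Ppbp was at 0.1 to 9.92 against 30.7 to 60.9 TPM (0.137). The part of these markers in the ER results was not tested. No other marker list exceeded 16.6 TPM in any library: B cell (7 of 7) reached 6.23, T and NK cell (6 of 7) 16.6, dendritic cell (6 of 6) 13.4, fibroblast (5 of 6) 11.9, mesothelial cell (2 of 6) 0.15 and mast cell (1 of 6) 0.1 TPM.

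In the authors' deposited table, 1238 of 15469 genes had a q-value under 0.05, and 5 members were among them. Edem2, Dnajb9, Hspa5 and Pdia3 were lower in KO in the authors' deposited table, with log2 fold changes of -0.72, -0.86, -0.35 and -0.31 (q-values 0.000281, 0.0397, 0.0268 and 0.0221). Ern1 was higher in the authors' deposited table, at 0.78 (q-value 0.00209).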

How the data were processed

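Per the file headers, the authors' table holds raw estimated counts for each gene in each of the 6 libraries. Of these values 4.82% to 5.49% were not whole, and they were rounded. TPM from the authors' deposited table was used for levels between genes. FPKM values, also deposited, were not used. The log2 fold changes, p-values and q-values of the authors' deposited comparison come from DESeq2, per the file headers. The submitters' processing notes name fastp 0.18.0 and GRCm39, but 13131 of 15426 genes matched to RefSeq had the start of GRCm38. The sources used here do not name the aligner, counter or strand setting, and reads of paralogs or overlapping genes may be split.

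Genes passing filterByExpr of edgeR 4.0.16 (minimum count 10, R 4.3.3) were compared by the quasi-likelihood F test (TMM factors, robust, group as the only term), with Benjamini-Hochberg adjustment over 11424 genes and an adjusted p under 0.05 as the call. Standard errors were taken from the F statistic. The fit and the GC correction were run on data simulated with the spread of the WT libraries. Those data held no divergent KO replicate 1, so they do not show how the fit behaves with this KO spread. The GC bias was simulated in KO replicates 2 and 3 without true changes, so whether the correction also removes true differences was not tested. Other settings tried were factors by RLE or upper quartile, DESeq2 1.42.0, limma-voom and limma-trend on log2(TPM + 1) (limma 3.58.1), other filters, a block on the replicate number, leaving out single libraries, and smooth terms of GC content and length per library (mgcv 1.9.3, 96.8% of genes with a value). That correction without KO replicate 1 was added after seeing the data. The members and lists were chosen with earlier results of these data known. All members could be named, with up to 3 called genes per direction of the other ER list, and up to 6 promoters with an ERSE at the smallest p.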

Additional observations from a re-analysis of the deposited data

How the results depend on the processing

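The number of members called rested on the libraries and the fit. Leaving out 1 library at a time gave 0 to 16 called members, 0 to 41 of the other ER genes and 5 to 5793 of all genes. The highest values came without KO replicate 1 and the 0 values without each of the other 5 (5 or more members at an unadjusted p under 0.05 in edgeR each time). DESeq2 called 5 members, 5 other ER genes and 1344 genes in all. The GC and length correction called 2, 2 and 719, and the same correction with KO replicate 1 left out 25, 54 and 6177. Upper-quartile factors gave 2 members and 0 other ER genes, limma-trend on log2 TPM 3 other ER genes and 895 in all, and a mean of at least 10 CPM 0, 0 and 231. With no filter 0 members and 0 other ER genes were called. The replicate number as a block called 0 members, 0 other ER genes and 0 genes in all. Deviations of same-numbered libraries from their group means correlated at -0.162, 0.246 and -0.271. With 3 libraries per group and KO replicate 1 apart from the other KO libraries, these values cannot show whether the numbers are a pairing.

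The median log2 difference of the members stayed below 0 in all 17 fits. It was -0.15 with upper-quartile factors, -0.0433 by limma-trend on log2 TPM, where the median of all genes moved up by 0.124 to 0.118, and -0.27 with the GC and length correction without KO replicate 1. With that last setting Derl2 (0.52) and Ufm1 (0.27) reversed. Of the 33 members, 20 kept 1 direction in all 17 fits.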
